A study of Mus musculus with 4 samples.

Results

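Imprinted genes were followed in primary mouse embryonic fibroblasts with and without RBP2. The 44 genes were taken by name, and each was read on the probe set that is annotated with its symbol alone and has the highest mean over the 4 arrays. Of the 44, 40 had such a probe set, out of 18193 genes named in this way, and 31 had one bright enough to be tested. The RBP2-null group is 2 independent lines of RBP2-/- fibroblasts at passage 3 and the wild-type group is 2 independent wild-type lines at the same passage, with 1 array per line. RBP2 is the histone demethylase encoded by Kdm5a. The allele, the strain, the age of the embryos and the sex of the lines are not given in the sources used here. Each genotype has a line numbered 1 and a line numbered 2 in the sample titles, and the labels do not say what lines with the same number share. The genes were therefore compared by genotype and, separately, by line number.

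An imprinted gene is expressed wholly or mainly from the allele inherited from 1 parent. The choice is made by DNA methylation that is laid down in the egg or the sperm at a control region, and whole domains of neighbouring genes can follow a shared control region. Methylation of lysine 4 of histone H3, the mark that RBP2 removes, is found on the unmethylated allele and keeps DNA methylation away. Many imprinted genes act on the growth of the embryo and placenta and are active in embryonic mesenchyme, from which these fibroblasts come. The arrays read the sum of both alleles, so they show the level of a transcript and not its parental origin. In textbook knowledge 24 of the genes are expressed from the maternal allele and 19 from the paternal allele, while Gnas gives several transcripts with different parental origin. For some of them, such as Copg2, Cd81, Nap1l4, Ube3a, Commd1 and Gatm, imprinting is known from the placenta or the brain rather than from fibroblasts. In bulk RNA, fewer cells of a type and less RNA per cell cannot be told apart.

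The deposited signal differed in overall brightness between arrays and the difference ran with line number. Its trimmed mean was 152 and 101 on the RBP2-null and wild-type arrays numbered 2, and 78.3 and 61.9 on the RBP2-null and wild-type arrays numbered 1. The arrays were quantile normalized, and values below are normalized log2(signal + 9) unless stated. Wild-type line 1 stood apart, with a correlation over the 27022 tested probe sets of 0.923 to 0.925 with the other arrays, against 0.946 to 0.963 among those. Kdm5a, on a probe set whose place relative to the deleted part is not known, had 6.40 and 6.49 in the RBP2-null lines and 6.72 and 7.65 in the wild-type lines. The analysis names in the labels are numbered so that both arrays of lines numbered 1 come before both of lines numbered 2, so array order and line number cannot be told apart. Xist was high in RBP2-null line 2 (10.23) and wild-type line 1 (10.68) and low in RBP2-null line 1 (5.88) and wild-type line 2 (6.22), so its level ran with neither genotype nor line number. The Y-linked genes Eif2s3y, Uty and Kdm5d ran opposite to Xist. Eif2s3y had 7.23 in RBP2-null line 1 and 7.07 in wild-type line 2, against 3.62 in RBP2-null line 2 and 3.28 in wild-type line 1. All 12 fibroblast markers examined were bright enough to be tested. Of markers of other cell types, 3 of 5 endothelial, 4 of 5 epithelial, 4 of 5 neural, 3 of 5 skeletal muscle and 0 of 4 liver markers passed the filter. Most were dim, but the deposited signal was 244.4 to 731 for the epithelial marker Epcam. For the neural markers Nes and Map2 it was 386.6 to 702 and 108.9 to 637.9. The only tested Epcam probe set is of a kind that can bind several transcripts, and the epithelial marker Cdh1 was below the filter. Pecam1 of the endothelial and Ptprc of the leukocyte markers were below the filter. The 5 tested macrophage markers all lay below 0 between genotypes, with a median of -0.28, against 13409 of all 27022 probe sets below 0. The arrays did not overlap for 1 of the 5, against 14.9% of all probe sets lower without overlap, and 0 had an unadjusted p under 0.05 in limma. By line number 4 of the 5 lay below 0, and the arrays did not overlap for 4 (80%), against 41% of all probe sets. The deposited signal of Tyrobp was 21.4 to 33.9, within the range of the genes below the filter given further on, and that of Fcer1g was 18.1 to 50.5. Summed normalized signals of the 7 measured macrophage markers, tested or not, were 259 and 298 in the RBP2-null lines, against 427 and 327 in the wild-type lines. Their part in the genotype values below was not tested.

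No imprinted gene passed the test between genotypes. RBP2-null and wild-type lines were compared in limma with Benjamini-Hochberg adjustment over all 27022 probe sets, and 0 of the 31 genes reached an adjusted p of 0.05. Of all probe sets 0.0037% did so, and 0 of the 31 genes had an unadjusted p under 0.05, against 2.96% of all probe sets. The estimates lay above 0 for 14 genes and below 0 for 17, with a median log2 difference of -0.030, beside a median of 0.0029 over all tested probe sets. The median was -0.013 for the 16 tested maternally expressed genes and -0.016 for the 14 tested paternally expressed ones. The arrays of the 2 genotypes did not overlap for 7 of the 31 genes, or 22.6%, against 29.5% of all probe sets. Mirg, Slc22a18 and Blcap were higher in both RBP2-null lines (14.6% of all probe sets), and Kcnq1ot1, Magel2, Airn and Commd1 were lower in both (14.9% of all probe sets). The median standard error over all probe sets was 0.32 on the log2 scale between genotypes and 0.30 by line number. As each group holds only 2 lines, the p-values speak to these lines alone, with a variance partly borrowed from other probe sets.

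The same genes differed more between lines of different number. Mest, Dlk1, Rian, Copg2, Meg3 and Igf2 had higher normalized signal in both lines numbered 2 than in both lines numbered 1, and Nnat, Ndn and Impact had lower normalized signal in both. As deposited, Ndn and Impact were higher on the array numbered 2 of each genotype, so their lower side appears only after normalization. None of the 31 genes reached an adjusted p of 0.05 in the comparison of line numbers alone, where 0.0037% of all probe sets did. An unadjusted p under 0.05 was reached by 10 of the 31 genes, or 32.3%, 7 of them higher and 3 lower in lines numbered 2, against 9.4% of all probe sets, or 5.11% higher and 4.29% lower. The arrays did not overlap by line number for 19 of the 31 genes, or 61.3%, against 41% of all probe sets, with 11 genes higher (20.3% of all probe sets) and 8 lower (20.7% of all probe sets). The genes were read on their brightest probe sets and chosen with earlier results of these data known. The shares therefore describe this list and are not an independent test of it. With genotype as a second term in the fit, 4 of the 31 genes, or 12.9%, passed with an adjusted p of 0.05 or less, against 2.02% of all probe sets. These 4 were Mest, Dlk1, Rian and Igf2, each higher in lines numbered 2. That fit sets the line difference of each genotype against the other and rests on 1 residual degree of freedom per probe set. The contrast left over parts the lines as Xist does. Most of the variance estimate is borrowed from other probe sets, so these adjusted p-values do not measure the scatter of a gene's own lines.

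**Figure D1:**
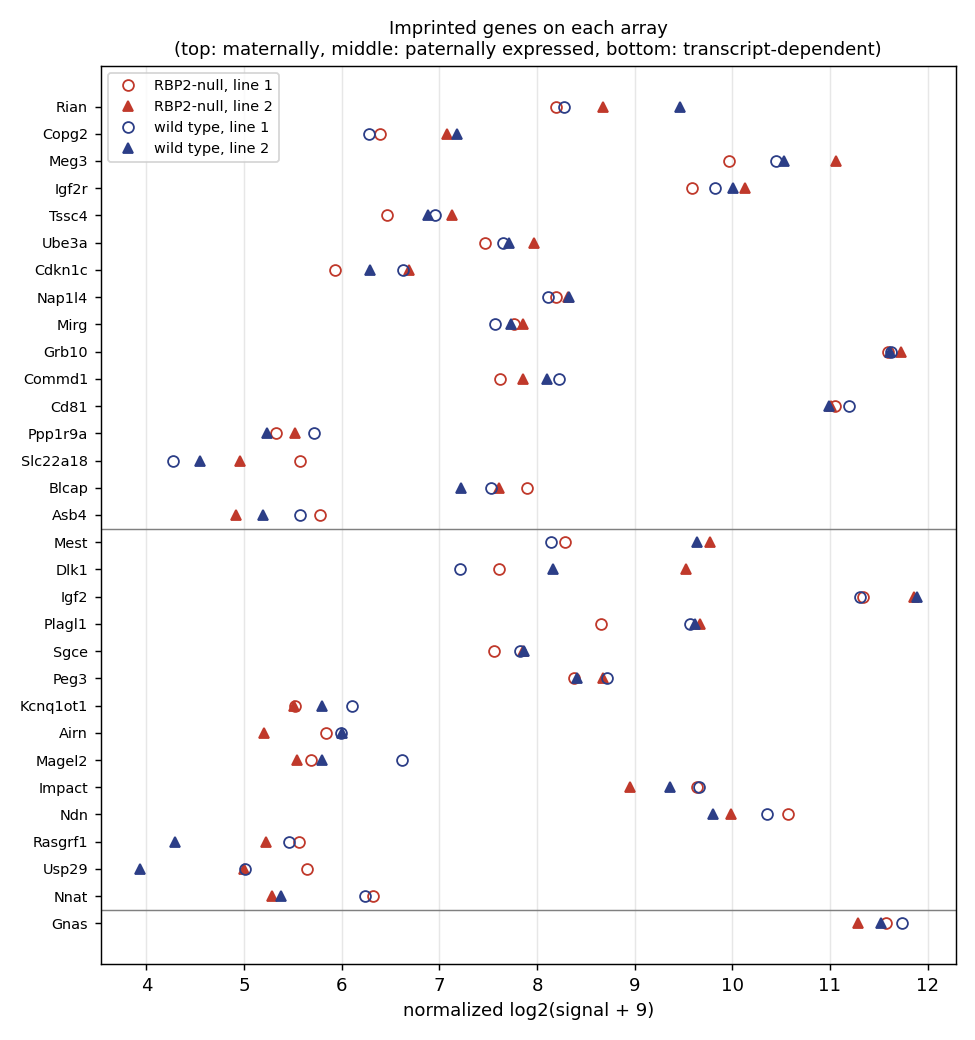
Normalized log2(signal + 9) of the 31 tested imprinted genes (rows) on the 4 arrays. Red stands for RBP2-null and blue for wild type, filled triangles for lines numbered 2 and open circles for lines numbered 1. Levels of different genes rest on different probes and are not to be compared. For Mest, Dlk1, Igf2, Copg2 and Rian both triangles lie right of both circles, and for Nnat and Ndn both lie left.

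**Figure D2:**
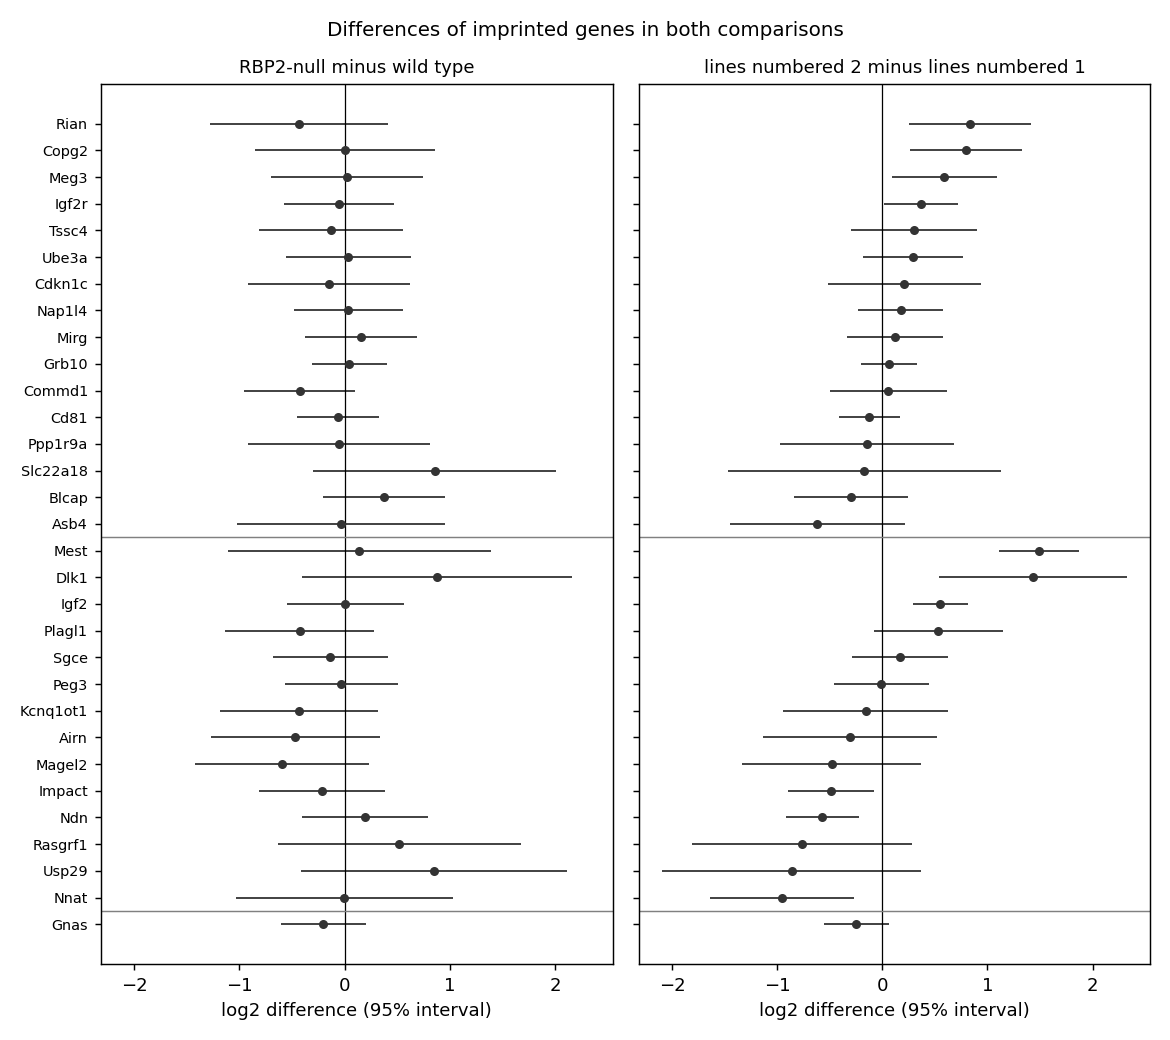
Log2 differences (points) with 95% intervals (lines) of the same genes, RBP2-null minus wild type on the left and lines numbered 2 minus lines numbered 1 on the right, both on 1 scale. Every interval on the left includes 0, while on the right those of Mest, Dlk1, Igf2, Rian, Copg2, Meg3 and Igf2r lie above 0 and those of Nnat, Ndn and Impact below it.

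The largest difference among the imprinted genes belonged to Mest, a paternally expressed gene for an enzyme of the alpha/beta hydrolase fold that is abundant in embryonic mesoderm. By line number, Mest had 9.77 (RBP2-null) and 9.64 (wild type) in lines numbered 2, against 8.29 (RBP2-null) and 8.14 (wild type) in lines numbered 1. The lines of a number were nearly level and the groups did not overlap. The log2 difference was 1.49 (standard error 0.17, 95% interval 1.11 to 1.87), which is 2.81-fold. The limma adjusted p of Mest was 0.0576, just outside the threshold, and 1.7e-07 with genotype in the fit. Line 2 exceeded line 1 by 1.48 in RBP2-null cells and by 1.499 in wild-type cells. As deposited, the Mest signal was 1329 and 807.6 on the RBP2-null and wild-type arrays numbered 2, and 242.5 and 167 on the RBP2-null and wild-type arrays numbered 1. Between genotypes Mest differed by 0.14 with a standard error of 0.55, an error that takes in the difference between line numbers.

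Copg2, whose gene meets the end of Mest and encodes a coat protein of Golgi vesicles, had estimates on the same side by line number. Its signal was 7.08 (RBP2-null) and 7.18 (wild type) in lines numbered 2 and 6.39 (RBP2-null) and 6.28 (wild type) in lines numbered 1, again without overlap. The log2 difference of Copg2 was 0.79 with a standard error of 0.23 and did not pass, with a limma adjusted p of 0.351, or 0.174 with genotype in the fit. Between genotypes it was 0.0044 with a standard error of 0.38, and its sign turned with median-centred arrays and with a pseudocount of 32.

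The domain of Dlk1 carries the paternally expressed Dlk1, a membrane protein related to Notch ligands that holds back the differentiation of fat cells, and the maternally expressed noncoding RNAs Meg3, Rian and Mirg. All 4 had estimates above 0 for lines numbered 2, with a median of 0.71, whichever allele they are expressed from. Dlk1 had 9.53 (RBP2-null) and 8.16 (wild type) in lines numbered 2, against 7.61 (RBP2-null) and 7.21 (wild type) in lines numbered 1. The log2 difference of Dlk1 was 1.44 with a standard error of 0.39, and the limma adjusted p was 0.316, or 2.47e-05 with genotype in the fit. RBP2-null line 2 was the highest of the 4 lines, and without it the difference by line number was 0.75. The order of the lines also put both RBP2-null arrays above the wild-type array of the same number. Between genotypes the log2 difference of Dlk1 was 0.88 (standard error 0.56, interval -0.40 to 2.16), and RBP2-null line 1 lay below wild-type line 2. Its only tested probe set is of a kind that can bind several transcripts. A dimmer Dlk1 probe set below the filter did not follow it, with 4.73 (RBP2-null) and 4.17 (wild type) in lines numbered 2 and 5.55 (RBP2-null) and 4.52 (wild type) in lines numbered 1, so without probe sets that can bind several transcripts no Dlk1 value was left.

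Meg3, a nuclear noncoding RNA linked to growth arrest, was read by 11 tested probe sets. On the brightest one it had 11.06 (RBP2-null) and 10.53 (wild type) in lines numbered 2, and 9.97 (RBP2-null) and 10.45 (wild type) in lines numbered 1. The groups were separated by a small gap between the wild-type lines, and the difference between line numbers came mostly from the RBP2-null lines, at 1.09 against 0.087 within wild type. The log2 difference of Meg3 was 0.59 with a standard error of 0.22, and the limma adjusted p was 0.452, or 0.0514 with genotype in the fit. Of the 11 Meg3 probe sets 10 lay above 0 by line number, ranging up to 0.95, and 1 was at -0.0051. Between genotypes the brightest Meg3 probe set had 0.025 and the 11 ranged from -0.32 to 1.11.

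Rian, a noncoding RNA that carries small nucleolar RNAs in its introns, had 8.67 (RBP2-null) and 9.46 (wild type) in lines numbered 2 and 8.19 (RBP2-null) and 8.27 (wild type) in lines numbered 1. Here wild-type line 2 was the highest, unlike Dlk1 and Meg3. The log2 difference of Rian by line number was 0.83 with a standard error of 0.25, and the limma adjusted p was 0.367, or 0.0163 with genotype in the fit. All 4 Rian probe sets were higher in both lines numbered 2, by 0.17 to 1.02 in the mean. Leaving out wild-type line 2 brought the value of Rian to 0.44. Mirg, the host of a cluster of microRNAs, differed by 0.12 on its brighter probe set and by 0.46 on the other. Between genotypes Rian had -0.43 with a standard error of 0.37 and Mirg had 0.16 with a standard error of 0.23.

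**Figure D3:**
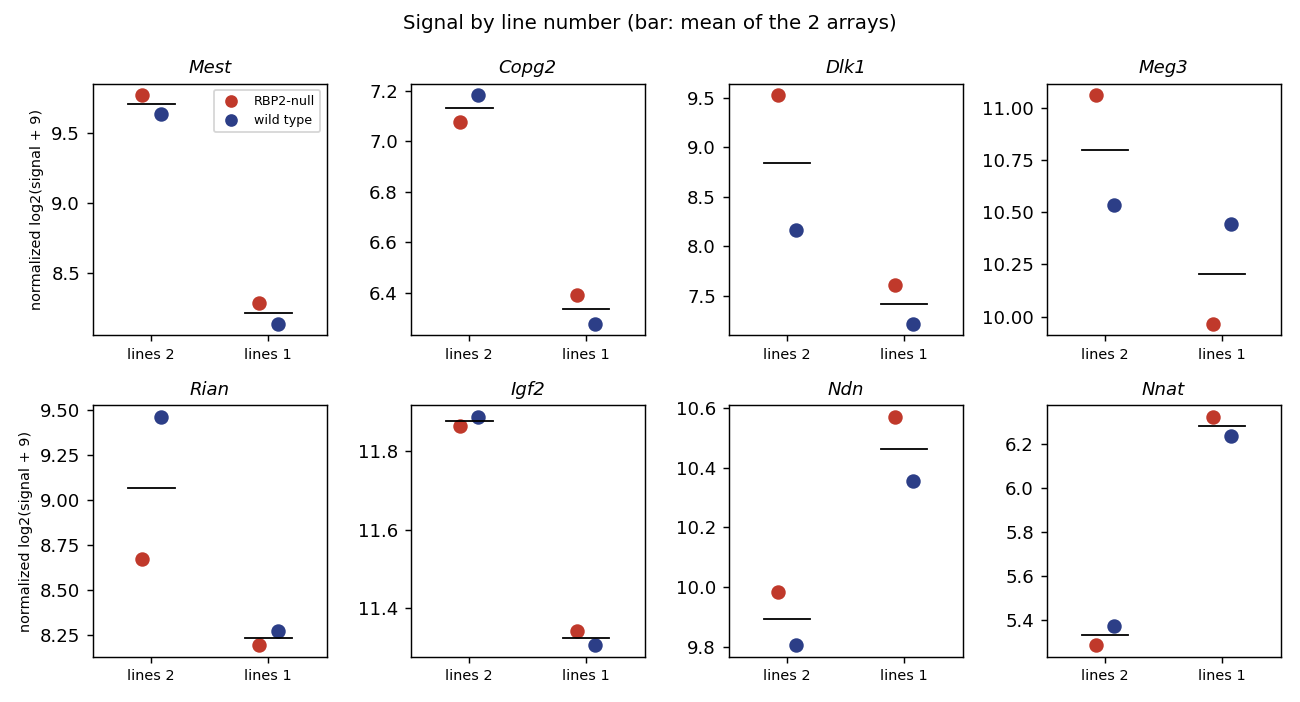
Normalized log2(signal + 9) of 8 imprinted genes, lines numbered 2 on the left and lines numbered 1 on the right of each panel, red for RBP2-null and blue for wild type, with a bar at the mean of the 2 arrays. Each panel has its own vertical axis. Mest, Copg2, Dlk1, Meg3, Rian and Igf2 are higher on the left, and Ndn and Nnat on the right.

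The promoters of the 4 genes that passed with genotype in the fit are shown because all 4 were higher in lines numbered 2. For each, the 250 bases before a transcription start are given 5′ to 3′ from RefSeq on GRCm38.p6, and where a gene has several starts the window with the most CpG dinucleotides was taken. Capitals mark matches on either strand to TGCCGC, bound by the imprint-keeping zinc finger protein ZFP57 when methylated, to CCGCCC, the sequence known for the ARID domain of RBP2, and to CCATNTT, the core of the YY1 site. The Mest window lies at chr6:30737800-30738049 on the plus strand, that of Dlk1 at chr12:109452573-109452822 on the plus strand, that of Igf2 at chr7:142658805-142659054 on the minus strand and that of Rian at chr12:109603695-109603944 on the plus strand.
Mest: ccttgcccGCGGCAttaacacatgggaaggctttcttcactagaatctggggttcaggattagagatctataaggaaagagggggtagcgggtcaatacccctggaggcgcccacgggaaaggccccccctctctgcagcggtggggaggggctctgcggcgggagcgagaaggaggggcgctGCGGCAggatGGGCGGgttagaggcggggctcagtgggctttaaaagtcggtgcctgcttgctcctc
Dlk1: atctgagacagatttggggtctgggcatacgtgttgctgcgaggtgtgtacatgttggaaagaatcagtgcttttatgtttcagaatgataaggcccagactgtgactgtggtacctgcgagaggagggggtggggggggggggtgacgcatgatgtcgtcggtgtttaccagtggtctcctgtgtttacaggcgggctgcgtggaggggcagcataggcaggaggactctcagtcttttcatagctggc
Igf2: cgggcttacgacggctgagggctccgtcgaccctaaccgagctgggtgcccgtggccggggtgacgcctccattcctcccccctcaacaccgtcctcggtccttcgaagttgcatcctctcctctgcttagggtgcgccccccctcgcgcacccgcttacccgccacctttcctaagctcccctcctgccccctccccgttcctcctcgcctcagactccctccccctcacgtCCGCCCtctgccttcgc
Rian: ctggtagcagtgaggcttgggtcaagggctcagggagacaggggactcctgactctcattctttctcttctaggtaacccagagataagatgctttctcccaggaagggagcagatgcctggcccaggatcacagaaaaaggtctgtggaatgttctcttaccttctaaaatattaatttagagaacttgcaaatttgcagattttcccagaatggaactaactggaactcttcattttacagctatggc

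The windows differed in CpG content, with 14 CpG dinucleotides in that of Mest, 8 in that of Dlk1, 22 in that of Igf2 and 0 in that of Rian, so these 4 genes do not share this feature. The Mest window held 2 matches to TGCCGC and 1 to CCGCCC, and the Igf2 window 1 to CCGCCC. The Dlk1 and Rian windows held no match to any of the 3 motifs. Of the 44 genes, 37 had at least 1 window, 53 in all. CCGCCC was present in 43.4% of these windows and in 32.7% of all 32851 windows of the same length. TGCCGC was present in 13.2% of them and in 8.7% of all, and CCATNTT in 13.2% and 12.4%. The median number of CpG dinucleotides was 10 in the windows of the imprinted genes and 6 in all windows. Such matches describe the letters of these windows only.

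Igf2 encodes a fetal growth factor, and its signal followed line number closely. It had 11.87 (RBP2-null) and 11.89 (wild type) in lines numbered 2, against 11.34 (RBP2-null) and 11.30 (wild type) in lines numbered 1. Within a line number the genotypes were nearly equal, and the log2 difference between line numbers was 0.55 with a standard error of 0.12, or 1.47-fold. The limma adjusted p of Igf2 was 0.234, or 0.0209 with genotype in the fit. A dimmer Igf2 probe set gave 1.07, with both lines numbered 2 above both lines numbered 1. Between genotypes Igf2 differed by 0.0078, with an interval from -0.55 to 0.56.

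Igf2r, the maternally expressed receptor that takes IGF2 to the lysosome, had 10.13 (RBP2-null) and 10.01 (wild type) in lines numbered 2 and 9.59 (RBP2-null) and 9.82 (wild type) in lines numbered 1. Its log2 difference by line number was 0.37 (standard error 0.15), with an adjusted p of 0.516, so ligand and receptor lay on the same side. A dimmer Igf2r probe set had 8.84 and 8.99 in the RBP2-null lines, against 8.19 and 8.59 in the wild-type lines, without overlap. Its log2 difference between genotypes was 0.53 (standard error 0.23), with a limma adjusted p of 1.00, against -0.055 (standard error 0.23) on the brighter one, so the 2 probe sets differ in sign. Airn, the paternal noncoding RNA that silences the paternal Igf2r allele in the mouse, had -0.31 by line number and -0.47 between genotypes, with standard errors of 0.36 and 0.35. Grb10, a maternally expressed adaptor that dampens insulin and IGF receptor signals, had 11.60 and 11.73 in the RBP2-null lines, against 11.62 and 11.62 in the wild-type lines. Grb10 was nearly level over the 4 lines, with log2 differences of 0.045 between genotypes (interval from -0.31 to 0.40) and 0.064 between line numbers (interval from -0.21 to 0.33). Its other probe sets reached -0.24 between genotypes and -0.16 by line number.

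Among regulators of growth and the cell cycle, Plagl1, a paternally expressed zinc finger factor that induces arrest, had 8.65 and 9.67 in the RBP2-null lines, against 9.56 and 9.62 in the wild-type lines. RBP2-null line 1 alone was low, and the other 3 lines were nearly level. The log2 difference of Plagl1 was -0.43 between genotypes and 0.53 by line number, with standard errors of 0.31 and 0.27. A dimmer Plagl1 probe set had 0.11 between genotypes and 1.07 by line number. Cdkn1c, the maternally expressed CDK inhibitor p57, had 5.93 and 6.68 in the RBP2-null lines and 6.62 and 6.28 in the wild-type lines, with overlap in both comparisons. Its log2 difference was -0.15 between genotypes and 0.21 by line number, with standard errors of 0.34 and 0.32. Peg3, a paternally expressed zinc finger protein, had 8.38 and 8.68 in the RBP2-null lines and 8.72 and 8.40 in the wild-type lines, and differed by -0.030 between genotypes and -0.0084 by line number, with standard errors of 0.23 and 0.20, both of which turned above 0 with median-centred arrays. A nearly as bright Peg3 probe set had 8.08 and 8.49 in the RBP2-null lines, against 8.88 and 8.61 in the wild-type lines. Those did not overlap, and the log2 difference was -0.46 between genotypes (standard error 0.24) and 0.070 by line number, while the third had 0.034 and 0.11. Its neighbour Usp29, a paternally expressed ubiquitin protease, had a deposited signal of 29.9 and 34 in the RBP2-null lines and 18.3 and 6.6 in the wild-type lines. This lies in the range of the genes below the filter, given further on, and a dimmer Usp29 probe set below the filter ran the other way, with 2.6 and 3.1 in the RBP2-null lines and 20.8 and 17.5 in the wild-type lines. No direction is read from it.

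The domain of Kcnq1 held 6 tested genes, and none of them had an unadjusted p under 0.05 in either comparison. Slc22a18, a membrane transporter, had a deposited signal of 28.1 and 32.5 in the RBP2-null lines and 8.1 and 14.6 in the wild-type lines, also in the range of the genes below the filter, so its log2 difference of 0.86 between genotypes (standard error 0.51) may not stand for the transcript. Kcnq1ot1, the paternal noncoding RNA that silences the domain, was lower in both RBP2-null lines, with -0.44 and a standard error of 0.33, and its other tested probe set had -0.48, with overlap. The remaining Tssc4, Nap1l4 and the tetraspanin Cd81 lay between -0.13 and 0.037 between genotypes and between -0.12 and 0.30 by line number. The domain's median was -0.095 between genotypes and 0.026 by line number.

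Some genes of other domains ran the other way by line number. Ndn, a paternally expressed MAGE protein of the Prader-Willi region that restrains proliferation, had 9.98 (RBP2-null) and 9.80 (wild type) in lines numbered 2, against 10.57 (RBP2-null) and 10.36 (wild type) in lines numbered 1. The groups did not overlap, and the log2 difference of Ndn was -0.57 (standard error 0.15), with a limma adjusted p of 0.306, or 0.0531 with genotype in the fit. Of its 8 tested probe sets 7 lay below 0 and 1 above, from -0.67 to 0.24. As deposited, the Ndn signal was 1523.1 (RBP2-null) and 908.4 (wild type) on arrays numbered 2, and 1287.2 (RBP2-null) and 786.7 (wild type) on arrays numbered 1. Before normalization it was thus higher, not lower, on the array numbered 2 of each genotype. Magel2, its MAGE neighbour, was lower in both RBP2-null lines, with -0.59 between genotypes and a standard error of 0.36, and had -0.48 by line number. Ube3a, a ubiquitin ligase imprinted in neurons, had 0.037 between genotypes and 0.29 by line number.

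Nnat, a paternally expressed small protein of the endoplasmic reticulum, had 5.29 (RBP2-null) and 5.38 (wild type) in lines numbered 2 and 6.32 (RBP2-null) and 6.24 (wild type) in lines numbered 1. Both lines of a number were close, and the log2 difference was -0.95 (standard error 0.30), with an adjusted p of 0.386. The deposited Nnat signal was 44.7 (RBP2-null) and 32.5 (wild type) on arrays numbered 2, and 53 (RBP2-null) and 45.2 (wild type) on arrays numbered 1. This is close to the range of the genes below the filter, with wild-type line 2 inside it, so the size of the difference is uncertain. Between genotypes Nnat had -0.0024, with an interval from -1.03 to 1.03. Blcap, the gene in which Nnat lies, was higher in both RBP2-null lines, with 0.38 and a standard error of 0.26, and had -0.30 by line number. Impact, a paternally expressed inhibitor of the kinase GCN2, had -0.49 by line number with a standard error of 0.18, but its other probe sets had 0.23 and 0.40, so its direction rests on the probe set chosen. As deposited, the brightest Impact probe set was higher on the arrays numbered 2, at 757.1 against 659.7 (RBP2-null) and 673.6 against 477 (wild type).

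Gnas, the locus of the stimulatory G protein alpha subunit, had 11.57 and 11.29 in the RBP2-null lines, against 11.73 and 11.53 in the wild-type lines, with log2 differences of -0.20 between genotypes and -0.25 by line number. The ranges overlapped between genotypes but not between line numbers, and the standard errors were 0.18 and 0.14. Rasgrf1, a paternally expressed exchange factor for Ras, had 0.52 between genotypes and -0.76 by line number, with standard errors of 0.51 and 0.46. The deposited Rasgrf1 signal was 28 and 42.2 in the RBP2-null lines and 26.7 and 10.9 in the wild-type lines. Except in RBP2-null line 2, just above it, this lies in the range of the genes below the filter, so no direction is read from Rasgrf1. In the domain of Sgce, a sarcoglycan, the tested genes Sgce, Asb4 and Ppp1r9a lay between -0.13 and -0.030 between genotypes. The Asb4 value of -0.62 by line number rests on a deposited signal of 31.4 (RBP2-null) and 27.5 (wild type) in lines numbered 2 and 33.7 (RBP2-null) and 28.8 (wild type) in lines numbered 1, again within the range of the genes below the filter. Commd1 was lower in both RBP2-null lines on its brightest probe set, with -0.43 and a standard error of 0.23, while its other probe set had 1.22.

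**Figure D4:**
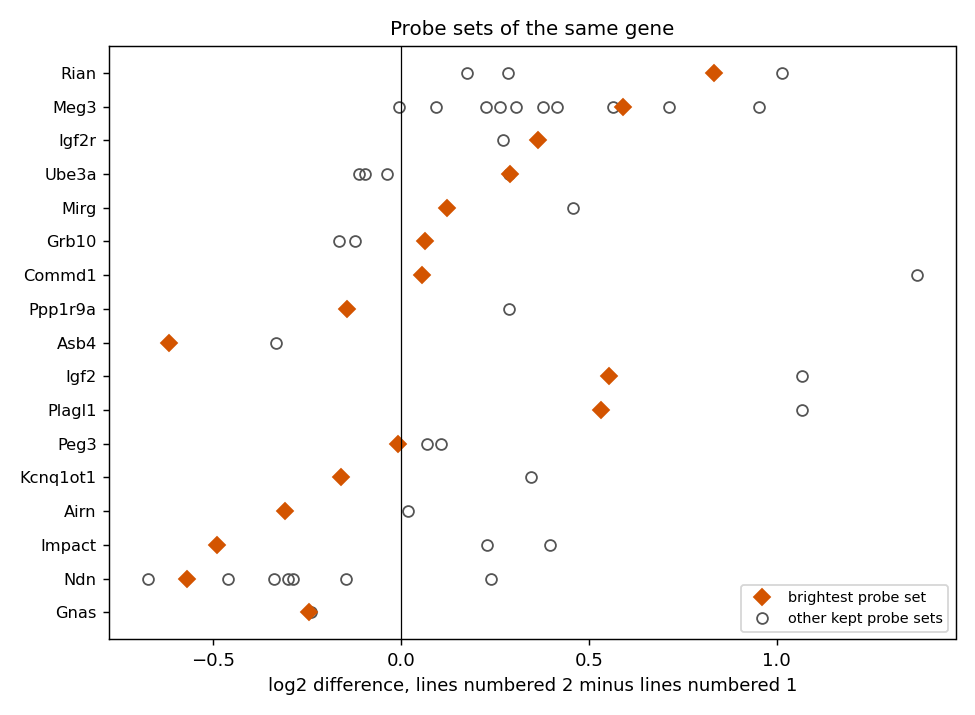
Log2 difference of lines numbered 2 minus lines numbered 1 for each tested probe set of the imprinted genes that have several, with the brightest as a filled diamond. All probe sets of Rian, Igf2 and Plagl1 lie above 0, 10 of 11 of Meg3 do, and 7 of 8 of Ndn lie below 0.

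The other 13 genes gave no test. Zim1, Phlda2, Kcnq1, Ascl2, Mkrn3, Snrpn, Peg10, Slc22a2 and Gatm had a probe set below the filter, and their deposited signal lay between 1.2 and 41.5 on all 4 arrays. At that level the values do not tell a low transcript from background. The same holds for 3 tested genes, Usp29, Slc22a18 and Asb4, which lay in that range on all 4 arrays and are counted among the 31. For Dio3, Slc22a3, Zrsr1 and H19 no probe set carried their symbol alone. H19 shared its probe set with another symbol in the annotation, as did 6 further probe sets of Snrpn, so no value is given for them.

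The genes that set and keep imprints were examined beside the imprinted genes. Of 25 listed, 21 were tested and 0 passed in either comparison, with a median log2 difference of 0.057 between genotypes and 0.11 by line number. Between genotypes the smallest unadjusted p values belonged to Zfp57 and its corepressor Trim28. Zfp57 had 0.99 with a standard error of 0.47, and Trim28 had -0.32 with a standard error of 0.17. The deposited Zfp57 signal was 20.2 and 68.9 in the RBP2-null lines and 12.7 and 11.2 in the wild-type lines. Except in RBP2-null line 2 this lies in the range of the genes below the filter, so no direction is read from Zfp57. Arid4a had 0.43 and Dnmt3a 0.79. By line number, 16 of the 21 lay above 0, against 13510 of all 27022 probe sets. The arrays did not overlap for 11 (52.4%), against 41% of all probe sets. An unadjusted p under 0.05 was reached by 3 (14.3%), against 9.4% of all probe sets. Dnmt3a, which methylates new sites, had 6.64 (RBP2-null) and 6.52 (wild type) in lines numbered 2 and 5.96 (RBP2-null) and 4.50 (wild type) in lines numbered 1. Its log2 difference was 1.35 (standard error 0.46), with a limma adjusted p of 0.424, or 0.0379 with genotype in the fit. The deposited Dnmt3a signal in lines numbered 1, 39.4 (RBP2-null) and 10.8 (wild type), lies in the range of the genes below the filter. The maintenance factors Uhrf1 and Hells had 0.72 and 0.70, and Ctcf, which insulates Igf2 on the maternal allele, had 0.47.

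A list of 27 other imprinted genes had 21 tested members, of which 0 passed in either comparison, with medians of 0.17 between genotypes and -0.12 by line number. Between genotypes Dcn, the proteoglycan decorin, had 0.71 and Atp10a 0.60, while Ins2 had -0.73 and Inpp5f -0.39. The deposited Ins2 signal was 11.3 to 37.3, within the range of the genes below the filter. By line number 8 of the 21 lay above 0 and 13 below. The arrays did not overlap for 7 of them, or 33.3%, with 2 higher and 5 lower, against 61.3% of the first 31 imprinted genes and 41% of all probe sets. An unadjusted p under 0.05 was reached by 3, or 14.3%, all lower in lines numbered 2, against 9.4% of all probe sets. Tnfrsf23, Sfmbt2 and Zdbf2 had -0.70, -0.85 and -0.73. Tfpi2, a protease inhibitor, had -1.18, and passed with an adjusted p of 0.0248 with genotype in the fit, although its 2 genotypes differed in sign, with 6.03 (RBP2-null) and 7.43 (wild type) in lines numbered 2 and 8.65 (RBP2-null) and 7.17 (wild type) in lines numbered 1.

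Some marker genes of mesenchymal cells differed by line number as well. Of the 12 fibroblast markers 10 lay above 0 by line number, with a median of 0.34, against 13510 of all 27022 probe sets above 0. In the comparison of line numbers alone 0 of the 12 passed, and 3 passed with genotype in the fit, against 2.02% of all probe sets. The arrays did not overlap by line number for 8 of the 12 (66.7%), against 61.3% of the imprinted genes and 41% of all probe sets. An unadjusted p under 0.05 in limma was reached by 5 (41.7%), against 32.3% of the imprinted genes and 9.4% of all probe sets. The sum of their normalized linear signals was 50217 (RBP2-null) and 50330 (wild type) in lines numbered 2, against 46196 (RBP2-null) and 44213 (wild type) in lines numbered 1. The receptor Pdgfra had 2.29 and Col3a1 0.67, while Vim had 0.069, Col1a2 0.056, Col1a1 -0.033 and Fn1 -0.19. The 4 smooth muscle markers all lay below 0, with a median of -0.60 and summed signals of 13370 (RBP2-null) and 13613 (wild type) in lines numbered 2 and 16909 (RBP2-null) and 17191 (wild type) in lines numbered 1. Of these 4, 3 (75%) did not overlap by line number, 2 (50%) had an unadjusted p under 0.05 in limma and 2 passed with genotype in the fit. No fibroblast or smooth muscle marker had a line number difference of exactly 0. The part of these markers, of array order and of array brightness in the line number differences of the imprinted genes was not tested. Under median-centred arrays and relative to the shift of all probe sets, the difference by line number was 1.58 for Mest, 1.52 for Dlk1, 0.95 for Rian and 0.51 for Igf2, so these 4 kept their direction.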

How the data were processed

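RNA of 4 fibroblast lines was labelled with biotin and read on Affymetrix 1-colour arrays, per the labels. The deposited table gives 1 linear signal intensity per probe set. The steps from scanned probes to that signal are not given in the sources used here. Values of the 45101 probe sets, less 64 controls, were quantile normalized because trimmed means (2% at each end) differed by up to 2.46 times. A pseudocount of 9, the 25th percentile, was added before log2, which understates changes of dim genes. The upper 60% by mean (27022) were tested in limma 3.58.1 under R 4.3.3 with a mean-dependent prior variance, two-sided, with Benjamini-Hochberg adjustment. With 2 lines against 2 an exact permutation test cannot go below 0.333. The number of arrays limits the precision.

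A platform annotation table gave 1 symbol for 34945 probe sets, and probe sets with several were not named. Parental origin came from textbook knowledge. All 44 genes could be named, and values of every array were to be given for genes past the threshold, with an absolute log2 difference of at least 1, or on a fixed list of 12. Other lists name up to 4 genes by smallest unadjusted p in each comparison. The members and lists were chosen with earlier results of these data known. The procedure was tested on simulated data. Promoters were searched as the 250 bases before each start.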

Additional observations from a re-analysis of the deposited data

Results flagged for a closer look

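Cdkn1c had differences of opposite sign between lines of different number in the 2 genotypes. Line 2 minus line 1 was 0.76 in RBP2-null cells and -0.34 in wild-type cells. Each value rests on 1 array per line, and the difference between them was not tested. The higher lines, RBP2-null line 2 and wild-type line 1, were also those with high Xist, and the part of this split was not tested.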

How the results depend on the processing

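Between genotypes, 1 probe set passed in all and 2 with median-centred arrays, 0 without the filter, 0 without scaling and 0 without the mean-dependent variance, and 0 to 82 with an array left out (the highest without wild-type replicate 2). No imprinted gene passed in any of these. The replicate number as a block gave 46 probe sets and 0 imprinted genes. The line differences of the 2 genotypes correlated at 0.11 over probe sets, and no label says that a number marks a shared origin, so the numbers were not taken as pairs. By line number, 1 probe set passed, and 11 with a pseudocount of 32, 16 with the upper 40%, 25 (24 higher) with median-centred arrays, 605 (all higher) without scaling, 0 without the mean-dependent variance, 547 (326 higher) with genotype as a term, and 1 to 1233 with an array left out (the highest without RBP2-null replicate 1). Among the imprinted genes, Mest alone (1 gene) passed with a pseudocount of 32 and with the upper 40%, while 4 passed without scaling (Mest, Copg2, Dlk1 and Rian) and 4 with genotype as a term. With an array left out there were 0 to 3, namely Igf2, Mest and Dlk1 without RBP2-null replicate 1, and Mest and Plagl1 without wild-type replicate 1. The line then left alone is assumed to vary like the others. Centring arrays on their medians shifted all probe sets by 0.19 between genotypes and 0.20 by line number, and leaving out scaling shifted them by 0.39 and 0.73. Values under these settings are given relative to that shift. The median line number difference of the imprinted genes was 0.058 (0.15 for maternally and -0.23 for paternally expressed genes) and followed the settings. Without the filter it was 0.083 for all, -0.083 for paternally expressed genes. With the upper 40% it was 0.15 for all, -0.083 for paternally expressed genes. With median-centred or unscaled arrays it was 0.14 for all, 0.24 for maternally expressed, 0.032 for paternally expressed genes. With the median of a gene's probe sets it was 0.095 for all, 0.083 for paternally expressed genes. With an array left out it was -0.14 to 0.15 for all, 0.051 to 0.25 for maternally and -0.35 to 0.13 for paternally expressed genes. Between genotypes these ranges were -0.18 to 0.10, -0.22 to 0.15 and -0.21 to 0.046. No gene had passed, and the sign of some estimates changed, among them values well away from 0 such as those of Commd1 and Dlk1 between genotypes and Impact by line number. Between genotypes these were: With a pseudocount of 32 Copg2 -0.00080 and Nnat 0.0043. With median-centred or unscaled arrays Igf2r 0.067, Copg2 -0.033, Peg3 0.075 and Cd81 0.052. Without probe sets that can bind several transcripts Plagl1 0.11, Gnas 0.032 and Commd1 1.23. With the median of a gene's probe sets Igf2r 0.24, Mirg -0.030, Grb10 -0.062 and Commd1 0.40. By line number: With median-centred or unscaled arrays Peg3 0.11 and Kcnq1ot1 0.28. With the median of a gene's probe sets Peg3 0.070, Grb10 -0.12, Kcnq1ot1 0.095, Ube3a -0.036, Ppp1r9a 0.071 and Impact 0.23. With an array left out, the sign between genotypes turned over Igf2 -0.29 to 0.29, Igf2r -0.34 to 0.22, Mest -0.61 to 0.89, Copg2 -0.46 to 0.45, Dlk1 -0.083 to 1.82, Meg3 -0.53 to 0.54, Rian -1.03 to 0.16, Peg3 -0.67 to 0.13, Plagl1 -0.94 to 0.078, Grb10 -0.022 to 0.11, Cdkn1c -0.50 to 0.23 and Kcnq1ot1 -1.003 to 0.39. The same held for Tssc4 -0.44 to 0.20, Nap1l4 -0.074 to 0.15, Cd81 -0.17 to 0.045, Ndn -0.10 to 0.50, Ube3a -0.22 to 0.29, Nnat -0.53 to 0.48, Sgce -0.28 to 0.014, Asb4 -0.47 to 0.37, Ppp1r9a -0.29 to 0.20, Impact -0.55 to 0.12 and Rasgrf1 -0.069 to 1.14. With an array left out, the sign by line number turned over Peg3 -0.32 to 0.16, Cdkn1c -0.14 to 0.58, Kcnq1ot1 -0.59 to 0.80, Ppp1r9a -0.35 to 0.056, Airn -0.70 to 0.085, Commd1 -0.24 to 0.36 and Slc22a18 -0.85 to 0.038. Mest, Copg2, Dlk1, Meg3, Rian, Igf2, Ndn and Nnat kept their direction by line number in every setting that gave a value. Median-centred and unscaled values are taken relative to the shift of all probe sets here too. Without that subtraction Ndn turned above 0 on unscaled arrays.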
